A study of Mus musculus with 14 samples.

Results

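Transcript levels of 10 acute-phase genes (Saa1, Saa2, Saa3, Saa4, Orm1, Orm2, Hp, Hpx, Apcs and Serpina3n) were followed in mouse liver under stress of the endoplasmic reticulum (ER). They were chosen by their symbols in the platform annotation, each read from its brightest probe set, and are 10 of the 12076 genes tested. All 10 passed the filter on low values. The arrays came from wild-type (WT) mice and from mice of the genotype lsPERK, the knock-out of the series. PERK is a kinase in the ER membrane that phosphorylates the translation factor eIF2 when unfolded proteins accumulate, and its gene is Eif2ak3. Treated livers were collected 6 h after 1 mg/kg tunicamycin, a blocker of N-linked glycosylation. Control livers had received 0.3% DMSO, with no time given. Each genotype was represented by 3 control and 4 tunicamycin arrays. Which part of the gene was deleted, in which cells and by what means is not given in the sources used here. Nothing in the labels says that replicates are separate animals, and the p-values therefore cover only the spread among these samples, which may be technical.

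Acute-phase proteins are plasma proteins that the liver makes in changed amounts during inflammation, mainly on signals from interleukin 6 and interleukin 1. Factors such as STAT3, C/EBPβ and NF-κB then act at their promoters. In the mouse, serum amyloid A and serum amyloid P component (Apcs) are major positive acute-phase proteins, whereas albumin and transthyretin are classic negative ones. Most are secreted through the ER, the compartment that tunicamycin disturbs, and many carry N-linked glycans.

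The 250 bases before the start of transcription were taken from the RefSeq promoter table (build GRCm38.p6), which held 8 of the 10 members. They are shown for Apcs, Serpina3n and Orm2, whose levels changed in WT liver, and for Saa1 and Saa2, whose upstream sequences are almost alike. Each is printed on the strand of its gene, 5′ to 3′, with capitals at matches to the motifs described after them.
Apcs: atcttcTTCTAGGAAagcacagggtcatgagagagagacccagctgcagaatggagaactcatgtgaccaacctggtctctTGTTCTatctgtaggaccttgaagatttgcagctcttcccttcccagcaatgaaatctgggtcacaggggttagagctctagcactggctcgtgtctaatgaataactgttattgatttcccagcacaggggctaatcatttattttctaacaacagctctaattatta
Serpina3n: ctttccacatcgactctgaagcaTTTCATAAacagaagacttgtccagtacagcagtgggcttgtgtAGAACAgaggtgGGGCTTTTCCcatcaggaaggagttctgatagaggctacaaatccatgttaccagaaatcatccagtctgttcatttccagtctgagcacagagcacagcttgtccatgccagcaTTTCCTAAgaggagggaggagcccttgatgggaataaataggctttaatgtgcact
Orm2: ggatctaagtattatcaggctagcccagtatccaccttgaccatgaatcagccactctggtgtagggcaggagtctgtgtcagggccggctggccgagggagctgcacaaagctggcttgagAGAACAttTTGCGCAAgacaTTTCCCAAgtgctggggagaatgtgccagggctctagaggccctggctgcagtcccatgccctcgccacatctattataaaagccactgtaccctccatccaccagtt
Saa1: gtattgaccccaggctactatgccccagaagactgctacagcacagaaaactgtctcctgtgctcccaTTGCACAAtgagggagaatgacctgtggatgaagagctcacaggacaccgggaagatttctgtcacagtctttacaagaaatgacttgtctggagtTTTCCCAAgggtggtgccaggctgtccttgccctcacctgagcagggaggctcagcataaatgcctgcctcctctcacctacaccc
Saa2: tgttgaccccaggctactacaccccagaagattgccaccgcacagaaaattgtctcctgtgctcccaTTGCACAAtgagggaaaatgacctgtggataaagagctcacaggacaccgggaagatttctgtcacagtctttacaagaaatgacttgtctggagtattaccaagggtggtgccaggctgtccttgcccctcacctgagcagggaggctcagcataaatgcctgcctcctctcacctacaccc
The Apcs stretch is chr1:172895055-172895304 (minus strand), that of Serpina3n chr12:104406458-104406707 (plus) and that of Orm2 chr4:63362199-63362448 (plus). That of Saa1 is chr7:46742981-46743230 (minus) and that of Saa2 chr7:46751583-46751832 (plus).

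Motifs were searched on both strands: TTNNGNAA for C/EBP, TTCNNNGAA for STAT, a degenerate NF-κB motif that begins with GGG and ends with CC (in capitals in Serpina3n), TGTTCT for the glucocorticoid receptor, TGACG for the core bound by ATF6 and CREB3 family factors, and the HNF1 motif. The C/EBP letters occurred in 36.8% of the 32851 promoter windows of the table, and in 7 of the 8 members with a window (Apcs had 0 matches). Serpina3n, Orm2 and Saa1 held 2 such matches each, and Saa2 held 1. The capitals in Apcs mark 1 STAT match (7.02% of all windows hold one) and 1 glucocorticoid receptor match (16.1%). Besides its C/EBP matches, Serpina3n held 1 NF-κB match (15.9%) and 1 glucocorticoid receptor match, and Orm2 held 1 of the latter. The core TGACG (17.8%) and the HNF1 motif (0.00913%) had 0 matches in the 5 stretches, and none of the matches overlapped. Saa1 and Saa2 agreed at 238 of 249 aligned bases (95.6%). A match is a description of these letters and not a measured site.

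In WT liver 4 of the 10 genes changed with tunicamycin: Apcs rose, while Serpina3n, Hp and Orm2 fell. In lsPERK liver 0 of the 10 passed the test, as 0 did at an unadjusted p under 0.05. A gene was called at a limma p under 0.05 after adjustment over all 12076 genes. On that rule 46.7% of all genes were called in WT liver (20.7% higher and 26% lower) and 15.7% in lsPERK liver (8.42% higher and 7.29% lower), so the share of members called in WT liver was near the background. The median log2 difference of the 10 was −0.13 in WT liver, the same as that of all genes to 2 decimals, and −0.25 in lsPERK liver against −0.02. Levels are normalized intensities on a linear scale unless called log2.

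Apcs encodes serum amyloid P component, a pentraxin that binds ligands on pathogens and on amyloid fibrils. Its level was 7859, 2608 and 4710 on the WT control arrays. On the WT tunicamycin arrays it was 11030, 11380, 10090 and 10630. All 4 treated arrays stood above all 3 controls and lay close together, whereas the controls spread 3.01-fold. The difference in WT liver was log2 1.23 (SE 0.33, limma adjusted p = 0.00777), a 2.35-fold rise. In lsPERK liver the level was 8369, 9325 and 4748 on the control arrays and 7016, 5817, 3205 and 4228 on the tunicamycin arrays. These groups overlapped and the difference, log2 −0.57 (95% confidence interval −1.29 to 0.15), did not pass (adjusted p = 0.295).

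After tunicamycin Apcs stood 2.22-fold lower in lsPERK than in WT liver (log2 −1.15, SE 0.31, adjusted p = 0.0101), with no array of one genotype inside the range of the other. In that comparison 35.3% of all genes were called. The difference of the responses (lsPERK minus WT) was log2 −1.80 (SE 0.47, adjusted p = 0.0165), in a comparison that called 19.9% of all genes. By geometric mean the order was WT tunicamycin (10770), lsPERK control (7182), lsPERK tunicamycin (4849) and WT control (4587). Of the 4 pairs of groups that were compared, the tunicamycin groups and the WT groups were called. The lsPERK control stood at log2 0.65 against WT control (adjusted p = 0.992). The call on the difference of responses was lost without the pair of arrays with the highest sum of neutrophil marker genes (log2 −1.68, adjusted p = 0.0633), an alternative chosen after seeing the data.

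Serpina3n encodes a secreted inhibitor of serine proteases, a mouse counterpart of human α1-antichymotrypsin. It was at 4802, 5267 and 5203 in WT control liver. Under tunicamycin the WT arrays read 3720, 1872, 2397 and 2634. In these normalized values every treated WT array was below every control, and replicate 1 was the highest of the treated ones. As deposited replicate 1 read 4706.76, inside the control range of 4041.83 to 5101.24. After normalization the fall was log2 −0.98 (SE 0.16, limma adjusted p = 0.000211), or 1.97-fold. In lsPERK liver the level was 4587, 4665 and 4739 in the controls and 3896, 3962, 4523 and 4225 after tunicamycin. These ranges did not overlap either, though they did as deposited. The difference of log2 −0.17 (95% confidence interval −0.52 to 0.18) did not pass (adjusted p = 0.546).

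The tunicamycin arrays of both genotypes were also separate for Serpina3n, at 3896 to 4523 in lsPERK against 1872 to 3720 in WT liver. That difference was log2 0.69 (SE 0.15, adjusted p = 0.00264). As deposited these ranges overlapped (3856.04 to 4866.98 against 2259.99 to 4706.76). The responses differed by log2 0.81 (SE 0.23, adjusted p = 0.0232). Between the controls lsPERK arrays were all below WT arrays, by log2 −0.13 (adjusted p = 0.992), but the ranges overlapped as deposited. The test on the difference of responses was missed without WT control replicate 3 (adjusted p = 0.051) and on the Xist-low arrays alone (log2 0.75, adjusted p = 0.119). In the values as deposited the difference of responses was log2 0.45 (adjusted p = 0.33). The median gene then stood at −0.42, against 0.08 after quantile normalization. As deposited the comparison of the tunicamycin groups missed the test as well (log2 0.54, adjusted p = 0.0519).

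Hp encodes haptoglobin, which binds free haemoglobin in plasma. In WT liver it was at 14560, 13510 and 14100 in the controls and at 12580, 11100, 11030 and 11620 after tunicamycin. All 4 treated arrays were below the 3 controls, but the change was small. It came to log2 −0.28 (SE 0.07, limma adjusted p = 0.00332), a 1.21-fold fall. As deposited the ranges overlapped, with treated arrays up to 14004.7 and controls up to 13687.3. After normalization the lsPERK arrays read 13200, 12420 and 14810 in the controls and 13130, 13290, 13660 and 13980 after tunicamycin. That was a difference of log2 0.01 (95% confidence interval −0.14 to 0.15). After tunicamycin Hp was 1.17-fold higher in lsPERK than in WT liver (log2 0.22, adjusted p = 0.0115), with no overlap. That call was lost in the values as deposited (log2 0.21, adjusted p = 0.112), where the ranges overlapped. It was also lost after median centring (log2 0.30, adjusted p = 0.0721) and without a trend in the variance (adjusted p = 0.0501). The difference of responses, log2 0.29 (SE 0.09), passed narrowly (adjusted p = 0.0457). Leaving out 1 array ended that call in 11 of 14 cases, with adjusted p-values up to 0.118. The call was also lost as deposited (log2 0.17, adjusted p = 0.449), where the median gene stood at −0.42.

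Orm2 encodes an α1-acid glycoprotein, a lipocalin that carries drugs and lipids. Its level was 702.4, 708.7 and 319.1 in WT control liver and 161.7, 308.4, 229.9 and 136.5 after tunicamycin. The groups were separate by a narrow gap, between 319.1 and 308.4, but overlapped as deposited. The fall was 2.72-fold (log2 −1.45, SE 0.51, limma adjusted p = 0.0328). In lsPERK liver the controls spread from 244.9 to 1534, with 671.6 between them, and the tunicamycin arrays read 482, 223.5, 475.6 and 326.5. There the difference was log2 −0.81 (95% confidence interval −1.92 to 0.29) and did not pass. The responses differed by log2 0.63 (adjusted p = 0.609), so a difference between genotypes was not shown. The WT call was lost without WT control replicate 1, WT control replicate 2, WT tunicamycin replicate 1 or WT tunicamycin replicate 4, at log2 −1.35 to −1.25 and adjusted p-values of 0.0727 to 0.109. Without lsPERK control replicate 3 the lsPERK difference passed (log2 −1.50, adjusted p = 0.042).

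**Figure D1:**
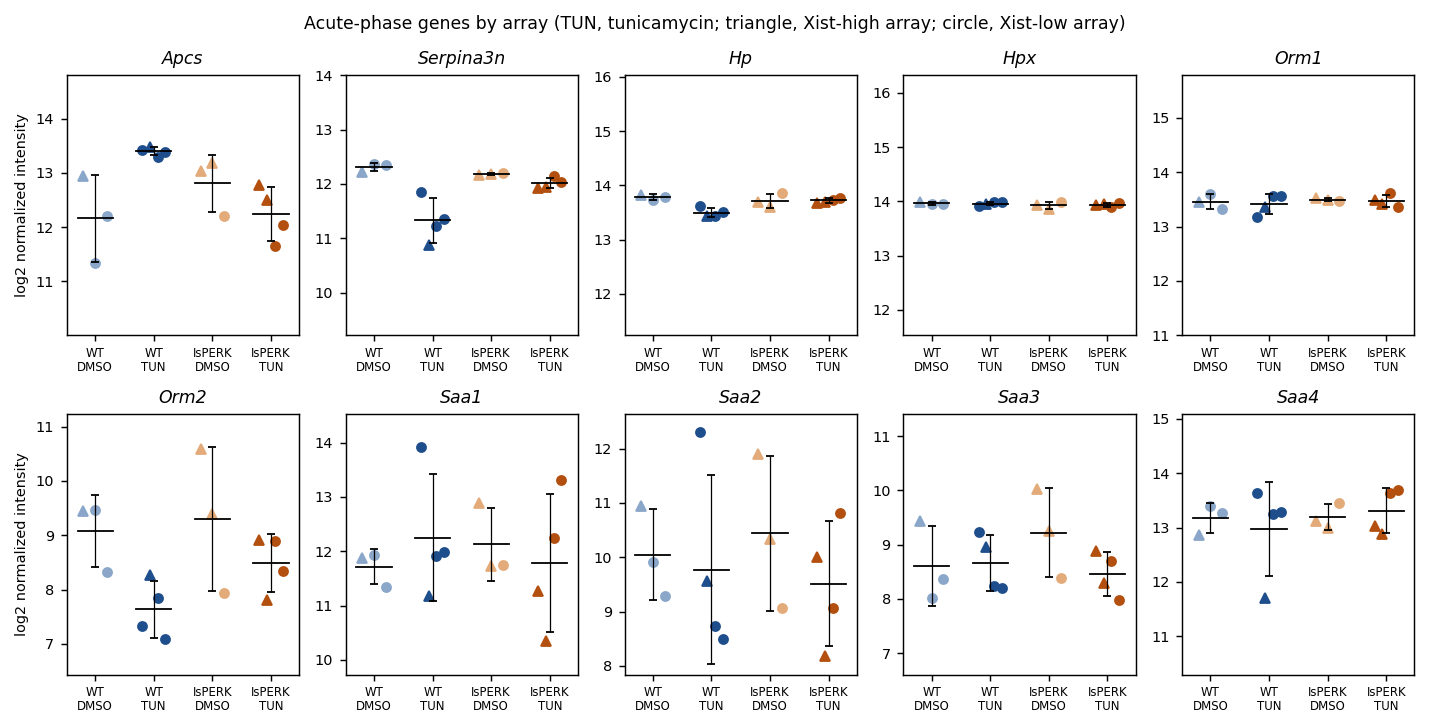
Normalized intensity of the 10 genes on each array, in log2 units, over axes of equal span (bars, mean and SD; 3 control and 4 tunicamycin arrays per genotype; TUN, tunicamycin). The 4 WT tunicamycin arrays stand above all others for Apcs and below all others for Serpina3n, while the Saa1 and Saa2 arrays scatter within every group.

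The comparison of control livers called 0 of all 12076 genes (0%), with 510 at an unadjusted p under 0.05, none of them a member. Under tunicamycin 2 members were higher in lsPERK than in WT liver (Hp and Serpina3n) and 1 was lower (Apcs), against 18.5% and 16.8% of all genes. The same 3 genes were called in the difference of responses, which shares its tunicamycin arrays with that comparison. Of all genes 10.2% and 9.71% were called higher and lower there. Ranges of the arrays did not overlap in WT liver for 1 member higher and 3 lower, against 21.6% and 26.5% of all genes. Between the tunicamycin groups they were separate for 2 members higher and 1 lower, against 18.7% and 17.7%. In lsPERK liver (13.4% of genes separate and higher, 13.8% lower) and between controls (2.79% and 4.59%), only Serpina3n was separate among the members, lower each time. These ranges are of the normalized values. Of the members with separate ranges, only Apcs kept them in the values as deposited.

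**Figure D2:**
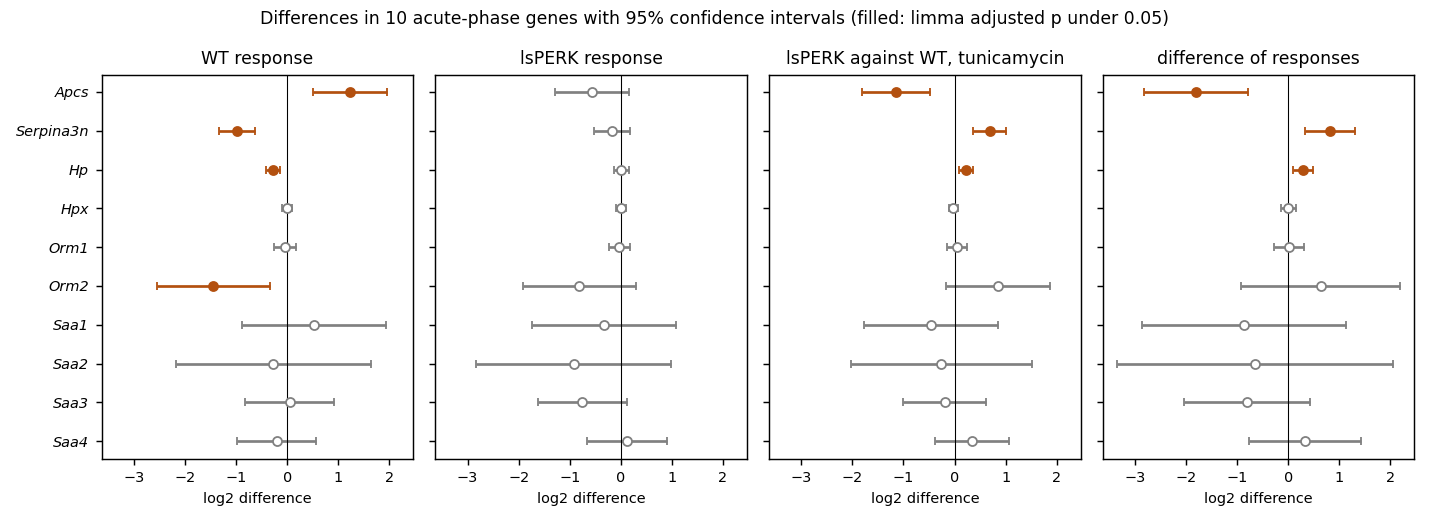
Log2 differences of the 10 genes with 95% confidence intervals in 4 comparisons; filled points passed the limma test. Intervals are narrow for Hp, Hpx and Orm1 and span 0 by more than 1 log2 unit on both sides for Saa2 in the WT response.

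The serum amyloid A genes did not pass in any of the 5 comparisons. Saa1 and Saa2 encode the acute-phase forms, apolipoproteins of high-density lipoprotein. Saa1 read 3778, 3891 and 2603 in WT control liver and 15450, 2326, 3847 and 4079 after tunicamycin. One WT array, tunicamycin replicate 1, was thus far above the rest of its group. With it the WT difference was log2 0.53 (95% confidence interval −0.88 to 1.94, adjusted p = 0.539), and without it −0.02. In lsPERK liver Saa1 read 7608, 3410 and 3433 in the controls and 2451, 1295, 4836 and 10130 after tunicamycin. Those groups overlapped, with the highest and the lowest level both among treated arrays (log2 −0.34, adjusted p = 0.797).

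Saa2 showed the same high arrays. Its level was 1971, 959 and 623.9 in WT control and 5036, 756.7, 424.4 and 362.3 in WT tunicamycin liver. In lsPERK liver it was 3849, 1297 and 538 in the controls and 1024, 290.4, 534.6 and 1810 after tunicamycin. The WT difference was log2 −0.27 (95% confidence interval −2.18 to 1.64) and the lsPERK difference −0.92 (−2.84 to 0.99). Saa1 and Saa2 may share signal. A further probe set of Saa1, whose accession is that of Saa2 in RefSeq, correlated at r = 0.971 with the brightest Saa1 probe set over the 14 arrays, and the Saa2 probe set at r = 0.743. That further probe set gave log2 0.15 in the WT response (adjusted p = 0.88).

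Saa3, which macrophages also make, was low and variable. It read 695.1, 259.9 and 329.2 in WT control, 604.3, 495.9, 302.5 and 294.9 in WT tunicamycin, 1044, 606 and 335.8 in lsPERK control and 472.6, 312.4, 416 and 253.9 in lsPERK tunicamycin liver. All 4 groups overlapped. The differences were log2 0.05 in WT (95% confidence interval −0.82 to 0.92) and −0.76 in lsPERK liver (−1.63 to 0.12, adjusted p = 0.249). Saa4 is the form made without inflammation. It read 7457, 10830 and 9876 in WT control and 12700, 3333, 9741 and 10030 in WT tunicamycin liver, so that replicate 2 was the lowest of all 14 arrays. In lsPERK liver it was 8924, 8193 and 11210 in the controls and 8380, 7544, 12810 and 13220 after tunicamycin. The WT difference was log2 −0.21 (95% confidence interval −0.98 to 0.56) and the lsPERK difference 0.12 (−0.65 to 0.89). Its second probe set, with r = 0.978 to the first, gave no call in any comparison.

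Orm1 and Hpx had the narrowest intervals besides Hp. Hpx encodes hemopexin, which binds free heme. It ranged from 14940 to 16330 over all 14 arrays. The 95% confidence interval of its WT response was log2 −0.10 to 0.10, and that of the lsPERK response was the same to 2 decimals. Orm1, the α1-acid glycoprotein related to Orm2, read 11270, 12370 and 10280 in WT control, 9310, 10470, 12060 and 12160 in WT tunicamycin, 11860, 11480 and 11390 in lsPERK control and 11500, 10870, 12580 and 10530 in lsPERK tunicamycin liver. Its groups overlapped, and its WT response was log2 −0.04 (95% confidence interval −0.25 to 0.16) where that of Orm2 was −1.45.

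The members differed in how far arrays of 1 group lay apart. The pooled SD within groups was log2 1.36 for Saa2, 1.00 for Saa1, 0.78 for Orm2, 0.61 for Saa3, 0.55 for Saa4 and 0.51 for Apcs, against a median of 0.25 over all genes. Serpina3n stood at 0.23, Orm1 at 0.13, Hp at 0.08 and Hpx at 0.04. Of all genes tested, 98.8% had a smaller SD than Saa2 and 0.224% a smaller one than Hpx. Of all pairs of members, the highest correlations of deviations from the group means over the 14 arrays were those of Saa4 with Serpina3n (r = 0.835), Saa1 with Saa2 (0.78), Saa1 with Serpina3n (0.682), Saa1 with Saa4 (0.664) and Saa2 with Saa3 (0.658). That of Saa1 with Saa3 was 0.222. These are descriptions; the arrays share their normalization.

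**Figure D3:**
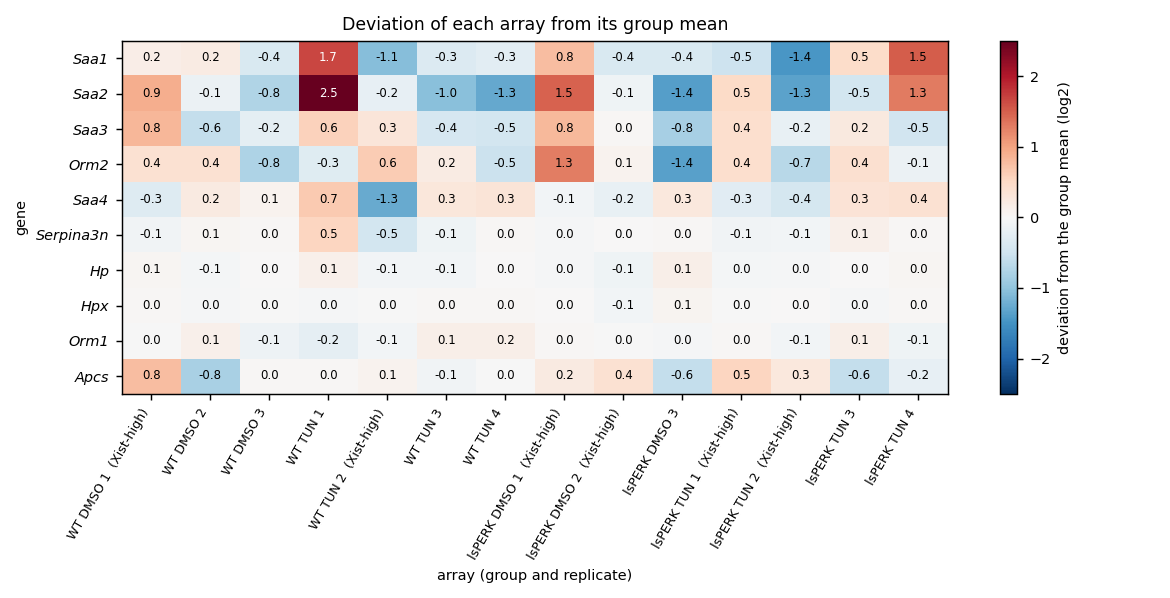
Deviation of each array from its group mean in log2 units, by gene (rows) and array (columns). WT tunicamycin replicate 1 stands 1.7 above its group mean for Saa1 and 2.5 above for Saa2, while the rows of Hp, Hpx and Orm1 stay pale.

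Xist, the RNA of the inactive X chromosome, was high on 6 arrays and low on 8, though no sex is labelled. Xist-high arrays made up 1 of 3 controls and 1 of 4 treated arrays in WT liver, and 2 of 3 controls and 2 of 4 treated arrays in lsPERK liver. Apcs was higher on the Xist-high than on the Xist-low arrays in all 4 groups, without overlap, as were 5.75% of all genes. In lsPERK control liver, for example, it was at 8369 and 9325 on the former and 4748 on the latter. Saa4 and Serpina3n were lower on the Xist-high arrays in all 4 groups, as were 4.66% of all genes. In lsPERK tunicamycin liver Saa4 read 7544 and 8380 on these and 12810 and 13220 on the Xist-low arrays. With Xist status in the fit the WT response of Apcs was log2 1.29 (adjusted p = 0.000133) and the difference of responses −1.74 (adjusted p = 0.000955). Serpina3n kept its fall in WT liver (adjusted p = 3.9e-05) and stood at 0.79 in the difference (adjusted p = 0.00992). Saa4 then passed between the tunicamycin groups, higher in lsPERK liver (log2 0.55, adjusted p = 0.0326). For Orm2 the difference between the tunicamycin groups was log2 1.20 on the Xist-low arrays alone (2 lsPERK and 3 WT). On all arrays it was 0.85 and did not pass (adjusted p = 0.188).

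The tissue check showed liver throughout. The summed intensity of 13 hepatocyte markers was 182800 to 196700 over all arrays, with similar ranges in the 4 groups. In a bulk sample, fewer cells of a type and less RNA per cell cannot be told apart. Sums of markers of other cells varied between arrays. The sum of 16 Kupffer cell and macrophage markers ran from 11100 to 31700 in WT control, 6828 to 21230 in WT tunicamycin, 10310 to 31100 in lsPERK control and 10880 to 16760 in lsPERK tunicamycin liver. Of these markers 0 were called higher and 2 lower in the WT response, against 20.7% and 26% of all genes. Their median was log2 −0.72 in the WT and −0.57 in the lsPERK response, against −0.13 and −0.02 over all genes. For lymphocyte and NK cell markers it was −0.71 and −0.72, and for monocyte and dendritic cell markers −0.54 and −0.33. In lsPERK liver the medians of stellate cell and fibroblast (0.07) and cholangiocyte markers (0.55) lay above that of all genes. So did those of hepatocyte (0.01), adipocyte (0.02), mesothelial and pancreatic acinar (0.08) and erythroid and blood markers (0.09). The neutrophil list had 13 genes on the array and 6 over the filter, with 0 called in any comparison. The median of the 6 was log2 −0.58 in the WT and −0.38 in the lsPERK response. The neutrophil sum was 701.4 on WT tunicamycin replicate 1 and 698.6 on lsPERK control replicate 1. These arrays had the highest Saa1 and Saa2 levels of their groups. On the others it was 200.5 to 561.5. On lsPERK tunicamycin replicate 4, with the highest Saa1 and Saa2 levels of its group (10130 and 1810), it was 259.9. WT tunicamycin replicate 1 had the lowest Kupffer cell and macrophage sum of all arrays (6828). The part of these cells in the Saa1, Saa2 and Saa3 levels was not tested. In the WT response the remaining lists gave, as numbers higher and lower, 0 and 1 of 4 monocyte and dendritic cell markers, 0 and 0 of 9 lymphocyte and NK cell markers, 0 and 3 of 12 endothelial markers, 0 and 4 of 13 stellate cell and fibroblast markers, 1 and 0 of 6 cholangiocyte markers, 1 and 0 of 6 adipocyte markers, 0 and 0 of 9 mesothelial and pancreatic acinar markers and 0 and 1 of 4 erythroid and blood markers.

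Eif2ak3 itself read 240.2 to 442.8 in WT control, 1725 to 2422 in WT tunicamycin, 126.6 to 157.2 in lsPERK control and 239 to 315.9 in lsPERK tunicamycin liver. In both treatments every lsPERK array stood below every WT array. The test between controls called 0 genes and thus not Eif2ak3. Where its probe set lies relative to the deleted part is not given in the sources used here, so its level was not taken as a check of the genotype. As a sign of RNA quality, the β-actin control signal at the 3′ end was set over that at the 5′ end. This ratio averaged log2 1.09, 0.84, 0.87 and 0.68 in the groups, in the order used for Eif2ak3, with SDs of 0.15, 0.25, 0.25 and 0.10. Before normalization the array medians ran from 34.6 to 53.5. The scaling set the balance of calls. As deposited, the median gene moved by log2 0.30 in WT liver and 83.7% of calls were higher, against −0.13 and 44.3% after quantile normalization and 0.01 and 60.7% after median centring. In the difference of responses the medians were −0.42, 0.08 and −0.01, with 6.79%, 51.2% and 35.7% of calls higher. Relative to the median gene, the WT responses as deposited were log2 1.15 for Apcs, −0.91 for Serpina3n, −0.47 for Hp and −1.23 for Orm2. All 4 genes kept their direction under the 3 scalings, but Hp and Orm2 lost the call as deposited (adjusted p = 0.205 and 0.219) and Orm2 also after median centring (0.074).

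Of 22 other positive acute-phase genes tested from a list of 30, 3 were higher and 10 lower in WT liver, against 20.7% and 26% of all genes. As deposited the counts were 2 and 4, where 3631 of all 12157 genes were called higher and 705 lower. In the quantile normalized values the median of the 22 was log2 −0.19, against −0.13 over all genes. In lsPERK liver 0 were higher and 1 was lower (8.42% and 7.29% of all genes), and 4 and 2 were called in the difference of responses (10.2% and 9.71%). Cfb, the complement factor B gene, fell from 7714 to 5096 (geometric means; log2 −0.60, SE 0.07, limma adjusted p = 6.98e-06) in WT liver, and Agt, the angiotensinogen gene, from 10180 to 6619 (−0.62, adjusted p = 0.000328). Crp, the gene of the pentraxin C-reactive protein, fell from 10170 to 6688, with every treated array below every control (−0.60, adjusted p = 0.00125). Itih3, of a hyaluronan-binding heavy chain, fell by 0.45 on the log2 scale. Mt2, a zinc-binding metallothionein, rose from 2073 to 14550 (log2 2.81, SE 0.57, adjusted p = 0.00105) but not in lsPERK liver (−0.65, adjusted p = 0.503). Mt2 was also the gene most like Apcs.

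In the lsPERK response none of Cfb, Agt, Crp and Itih3 passed, and the differences of responses were log2 0.41, 0.70 and 0.66 for the first 3, each called. That of Itih3 was 0.33 (adjusted p = 0.0769). The Xist-low arrays hold only 1 lsPERK control. On them the median difference of responses of the 22 genes was log2 0.09, against 0.05 over all genes. Of 17 negative acute-phase genes tested, 0 were higher and 5 lower in WT liver, where their median was log2 −0.06. The share called lower was near the 26% of all genes, while 20.7% of all genes were called higher. Kng1, which encodes kininogen, fell by 0.24, Itih1 by 0.26, Pon1, of the esterase paraoxonase, by 0.18 and Serpina6, of corticosteroid-binding globulin, by 0.58 on the log2 scale. Serpina6 also fell in lsPERK liver (−0.99, adjusted p = 0.00233). Apoh stood at −0.06 (adjusted p = 0.305). As deposited, 0 of these 17 were called in WT liver, against 3631 higher and 705 lower of all 12157 genes. Itih1 then stood at log2 0.02, below the median gene at 0.30.

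Among 33 tested genes of the interleukin 6, interleukin 1 and tumour necrosis factor pathways, 4 were higher and 10 lower in WT liver, and 4 and 3 in lsPERK liver. The shares of all genes were 20.7% and 26% in WT liver, so the share called lower was near the background, and 8.42% and 7.29% in lsPERK liver. As deposited the WT count was 11 higher and 3 lower, where 3631 and 705 of all 12157 genes were called. Nfkbiz, an inducible co-regulator of NF-κB, fell from 436.9 to 118.5 in WT liver (log2 −1.88, SE 0.29, limma adjusted p = 0.000113) and stood at −0.25 in lsPERK liver. The NF-κB inhibitor gene Nfkbia fell from 6591 to 3996 (−0.72, adjusted p = 0.000136). Rela, a subunit of NF-κB, rose from 1397 to 3171 (1.18, adjusted p = 1.99e-06) and the inhibitor gene Nfkbib from 555.2 to 1201 (1.11, adjusted p = 1.5e-06). Tnfrsf1a, a receptor of tumour necrosis factor, was at −0.42 (adjusted p = 0.00631). As deposited it was at 0.12, below the median gene at 0.30. Nfkbib alone of these 5 was called in lsPERK liver (0.44, adjusted p = 0.0111).

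Of 23 tested transcription factors of acute-phase promoters, 10 were higher and 6 lower in WT liver, against 20.7% and 26% of all genes, and 7 and 4 in lsPERK liver, against 8.42% and 7.29%. In the difference of responses 4 were higher and 8 lower, against 10.2% and 9.71%. Ddit3 encodes CHOP, a C/EBP family member that lowers binding by its partners. It rose from 234.8 to 16300 in WT liver (log2 6.12, SE 0.15, limma adjusted p = 5.52e-12) and from 232.6 to 1269 in lsPERK liver (2.45, adjusted p = 2.17e-07). Cebpg, of another C/EBP member, rose in WT liver (1.42, adjusted p = 6e-06) and stood at 0.12 in lsPERK liver. Jun, of the AP-1 factor, rose in both (3.75 and 1.90). Rora, of a nuclear receptor that regulates clock and metabolic genes, rose in WT liver (1.97, adjusted p = 8.26e-07). Nr0b2, of the corepressor SHP, fell in WT liver from 1378 to 136.7 (−3.33, adjusted p = 1.04e-05) and rose in lsPERK liver from 581.8 to 1824 (1.65, adjusted p = 0.0108).

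**Figure D4:**
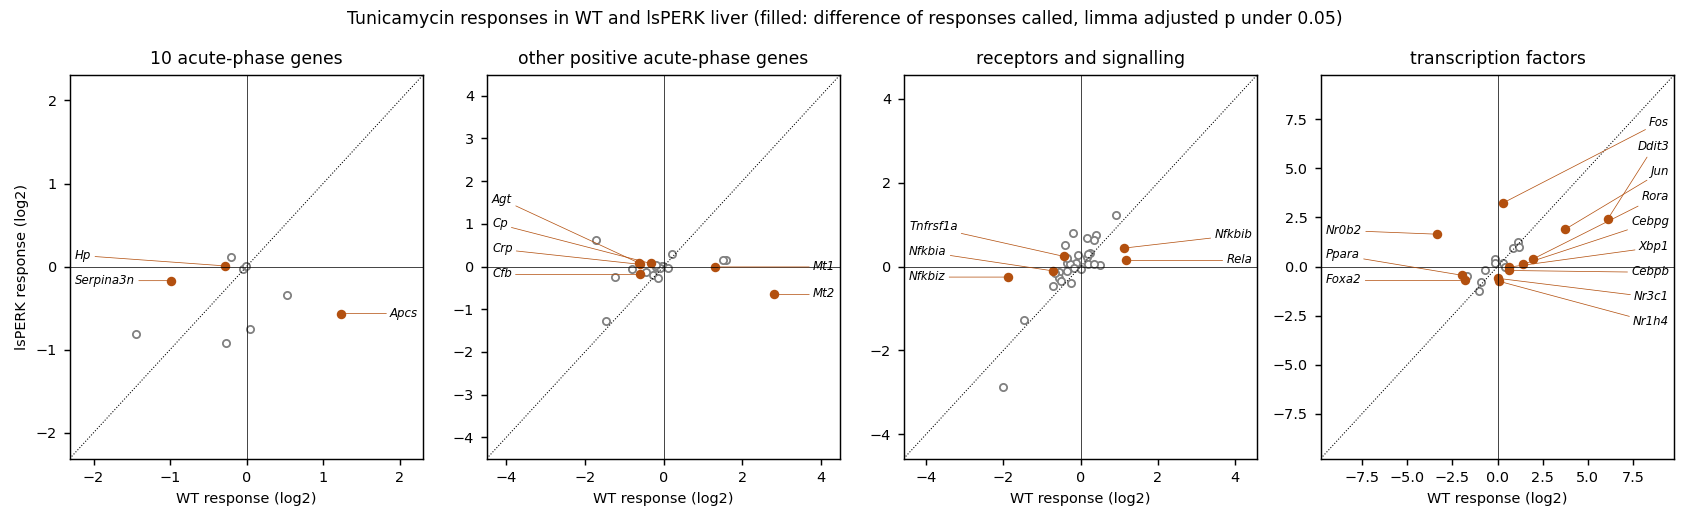
Tunicamycin response in WT (x axis) and lsPERK liver (y axis), both in log2 units, for the 10 genes and 3 lists of related genes; the dotted line marks equal responses and axis ranges differ between panels. Apcs lies at 1.23 and −0.57, Serpina3n at −0.98 and −0.17, and most genes with a called difference lie nearer to 0 on the y axis than on the x axis.

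Genes whose pattern over the 14 arrays was most like each member were ranked by Pearson r among all genes tested, as a description. For Apcs these were Mt2 (r = 0.895), B230217C12Rik (0.883) and Gpat3 (0.879). Serpina3n was most like Man1a, a mannosidase gene of N-glycan processing (0.968), Fkbp8 (0.953) and Aplp2 (0.952), and Hp most like Ilk (0.939). Saa2 was most like S100a9 (0.831) and S100a8 (0.791), which stand on the neutrophil list. For Saa3 they were Dok2 (0.862), Frmd4a (0.85) and Lgals3 (0.843), and for Orm2 Ncmap (0.921), Maf (0.913) and Fgd4 (0.911). Saa4 was most like Ugt2b5 (0.935), Cyp2f2 (0.931) and the Y-linked Kdm5d (0.931). Saa1 was most like Dnm3 (0.825), Hpx like Selenop (0.903) and Orm1 like Rbbp9 (0.784). The r of Orm1 was the lowest of the 10.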

How the data were processed

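Per the labels, total RNA of mouse liver was purified and labelled by the Affymetrix 3′ protocol, and each of 14 samples was read on 1 array. The authors deposited 1 linear intensity per probe set and array (0.0312 to 27757 over 45101 probe sets). MAS5 and GCOS, which summarise the probes of a set, are named in the submitters' processing notes. The sources used here name no version, scaling target or genome build. The number of arrays limits the precision, since arrays have no depth of reading.

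Array medians differed by 0.63 on the log2 scale, so log2 intensities were quantile normalized. Of 34945 probe sets with 1 gene in the platform annotation, 21785 exceeded the pooled median (an intensity of 41.6) on at least 3 arrays. The 932 with several genes and 64 control probe sets were left out. Each of 12076 genes was read from its brightest kept probe set. A model of the 4 groups was fitted in limma 3.58.1 under R 4.3.3 (eBayes with a trend, 10 residual degrees of freedom) in 5 two-sided contrasts. P-values were adjusted by Benjamini-Hochberg over all 12076 genes. The procedure was tested on simulated data. Figures were drawn with matplotlib 3.10.9 under Python 3.11.15.

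The members, lists and rules were chosen with earlier results of these data known. Named are all 10 members, Eif2ak3, up to 4 genes of each companion list by p in the WT response and in the difference of responses, and the 3 genes most like each member. S100a9, S100a8 and Man1a belong to the last. Alternatives covered scaling, filter, an added value, variance models, probe set choice, Xist status, β-actin 3′ to 5′ ratio, a replicate block and each array left out.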

Additional observations from a re-analysis of the deposited data

Results flagged for a closer look

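The responses of 3 members were called different between genotypes (lsPERK minus WT, log2, limma test of the difference itself): Apcs by −1.80, Serpina3n by 0.81 and Hp by 0.29. Of all genes 19.9% were called there. Hp lost this call in 11 of 14 fits without 1 array. Hp and Serpina3n lost it as deposited (adjusted p = 0.449 and 0.33), and Apcs without the 2 arrays of highest neutrophil marker sum (0.0633). The genes of other lists that follow were chosen by p in the WT response or in this comparison. Among other positive acute-phase genes the differences were −3.46 for Mt2, 0.70 for Agt, 0.66 for Crp and 0.41 for Cfb. Of the receptor and signalling genes, Nfkbiz differed by 1.63, Rela by −1.04, Nfkbib by −0.68, Tnfrsf1a by 0.66 and Nfkbia by 0.62. Among transcription factors Nr0b2 differed by 4.98, Ddit3 by −3.67, Jun by −1.85, Rora by −1.58 and Cebpg by −1.30.

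Rora on WT tunicamycin replicate 2 (6136) lay far below the other arrays of its group (8768 to 9362), with a gap of 0.845 of the group's range. A gap this wide is found by chance in about 1 in 20 such groups, and more genes and groups than this one were scanned. The array was the only Xist-high one of its group.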

How the results depend on the processing

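Of 1440 values of single members under an alternative, 1404 kept their side of the threshold without a called sign change, 33 lost a call, 3 gained one and 0 reversed. In 115 of the 1404 an uncalled value changed sign. Most of the 1440 had no call to lose. In the main fit 6 of the 10 members were not called in the WT response and 10 in the lsPERK response. Between controls 10 were not called, between tunicamycin groups 7, and in the difference of responses 7. Apcs kept its call in the WT response, between tunicamycin groups and in the difference of responses under every alternative chosen beforehand. The cause of the changes that follow was not tested.

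As deposited, 1 member was called lower in the WT response (3 in the quantile normalized values), and 0 were called higher between tunicamycin groups and 0 in the difference of responses (2 each). After median centring, or without a trend in the variance, 1 member was called higher between tunicamycin groups. In the difference of responses 1 was called higher with no filter, 1 without a trend, 0 on the Xist-low arrays alone, and 1 higher and 0 lower without the 2 arrays of highest neutrophil marker sum. Leaving out each array in turn gave 0 to 2 members higher in the difference of responses (0 without WT control replicate 3) and 0 to 1 lower in the lsPERK response.

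With the replicate number as a block, 1 member was called higher in the difference of responses, since Hp missed the test (adjusted p = 0.0551). Orm2 then also missed it in the WT response (log2 −1.33, adjusted p = 0.0524), and the block changed no other call of a member. The labels do not say that a number marks a shared animal or day, and not all same-numbered arrays of different groups deviated together. Their deviations correlated at −0.37 to 0.42 (median 0.24, 13 of 19 pairs over 0.1), against a median of −0.17 for arrays of different number (23 of 54 pairs over 0.1). Only 4 of 14 arrays correlated best with 1 of their own number, so the numbers were not taken as a pairing. All arrays numbered 3 or 4 were Xist-low, and most of those numbered 1 or 2 were Xist-high. The part of Xist status in these correlations and in the block was not tested.

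Counts over all genes moved by more than 1.5 times in these cases. As deposited, 705 were lower in the WT response (3138 otherwise), 405 higher and 290 lower in the lsPERK response (1017 and 880), 705 higher between tunicamycin groups (2232), and 129 higher and 1771 lower in the difference of responses (1231 and 1172). After median centring the counts were 1949 lower in WT, 421 lower in lsPERK, 1370 higher between tunicamycin groups and 661 higher in the difference. The Xist-low arrays alone gave 420 and 275 in the lsPERK response, 497 and 679 in the difference of responses and 2 and 15 between controls. Without lsPERK control replicate 2 the lsPERK response held 674 and 449.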
